A study of Homo sapiens with 24 samples.

Results

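Surface ectoderm is the sheet of early ectoderm that becomes epidermis and, at the border with the neural plate, cranial placodes, the thickenings that form the lens, the inner ear and sensory ganglia. A set of 9 genes known from these tissues was followed, out of 61551 genes in the count table: the simple-epithelium keratins KRT8, KRT18 and KRT19, the zinc-finger factors GATA2 and GATA3, the epidermal master factor TP63, the placode cofactor EYA1, and the grainyhead-like factors GRHL2 and GRHL3. The genes were taken by symbol, and all 9 were found.

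High BMP signalling directs ectoderm toward epidermis and low BMP signalling directs it toward neural tissue, and the neural crest and the placodes arise at the border between them. GATA2, GATA3 and the AP-2 factors TFAP2A and TFAP2C act early in non-neural ectoderm, and TP63 then turns on the basal keratins KRT5 and KRT14. GRHL2 and GRHL3 maintain epithelial junctions and are needed for neural tube closure. KRT8 (type II) pairs with KRT18 or KRT19 (type I) to form the intermediate filaments of simple epithelia, and human embryonic stem cells, which grow as an epithelium, use the same pair. GATA2, GATA3 and KRT7 are also used by amnion and trophoblast.

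The cells were H9, an established human embryonic stem cell (hESC) line. HAR123 is a noncoding enhancer that lies in an intron of SMG6, which is not among the genes followed here. Whether the deleted stretch overlaps exons of other counted transcripts was not examined. The 4 genotypes were hHAR123 (unedited, the control), HAR123-KO (both copies deleted with CRISPR-Cas9), cHAR123 (the human element replaced by the chimpanzee sequence) and mHAR123 (replaced by the mouse sequence). Each genotype was sequenced as hESCs, with no treatment, and as neuroectoderm, after 5 days with Noggin (500 ng/ml), which blocks BMP signalling, and SB431542 (10 μM), which blocks activin, nodal and TGFβ receptors. Each genotype and stage has 3 libraries, 24 in all, from 2 clones per genotype. No source used here ties a library to its clone, so libraries of a group may share a clone, and p-values measure the spread between libraries only.

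Library totals ranged from 23334732 to 35198684 counts in hESCs and from 21022748 to 25978892 in neuroectoderm, and 3 counts correspond to 0.0852 to 0.143 counts-per-million (CPM). In hHAR123, 7 of 8 neuroectoderm markers rose and 7 of 8 pluripotency markers fell from hESCs to neuroectoderm. By the same thresholds, given below, 45.9% of 22280 genes changed in either direction. In the study's own neuroectoderm gene lists, the base means given for cHAR123 belong to the columns labelled mHAR123, and the reverse. The names cHAR123 and mHAR123 in neuroectoderm therefore mean libraries labelled so, and the differences from hHAR123 or HAR123-KO would trade names if the labels were exchanged. The differences between cHAR123 and mHAR123 neuroectoderm would turn sign, and the stage changes within these genotypes would pair other libraries. Comparisons of HAR123-KO with hHAR123 do not use these libraries. RNA from a mixed culture cannot tell fewer cells of a type from less RNA per cell.

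The label of the set names the genes and not the cells. In neuroectoderm TP63 had at most 4 counts in any library, and KRT14 had no count in any of the 4 genotypes. KRT5 had no count in hHAR123, HAR123-KO or mHAR123 neuroectoderm. KRT8, KRT18 and KRT19 supplied 97.3% to 98.5% of the summed CPM of 68 keratin genes in each group. By level the set was led by simple-epithelium keratins, and TP63, KRT5 and KRT14 were at or near 0. Other epidermal genes were not silent. A list of 12 basal epidermal genes tied to TP63 summed to 242.6 to 248.5 CPM in hHAR123 neuroectoderm, with 5 at 1 CPM or more. In HAR123-KO neuroectoderm the sum was 265.6 to 275.3 CPM, with 4 at 1 CPM or more.

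The promoter stretches of GATA2 and GATA3, the members called in HAR123-KO neuroectoderm, and of GRHL3, which rose at the stage change while its paralog GRHL2 fell, are shown for those reasons. Each is the 250 bases before the most upstream RefSeq start of the gene (GRCh38.p14, 5′ to 3′ on the gene's strand). GATA2 is chr3:128493202-128493451 on the minus strand, GATA3 is chr10:8045083-8045332 on the plus strand, and GRHL3 is chr1:24319107-24319356 on the plus strand. The GRHL3 stretch lies inside the GRHL3 gene as counted here, which starts at 24199558, so it is not the promoter of that outermost start. Capitals mark matches, on either strand, to the GATA words (AGATAA or AGATAG, or the same with a leading T in place of A, TGATAA or TGATAG) or to the AP-2 word GCCNNNGGC.
GATA2: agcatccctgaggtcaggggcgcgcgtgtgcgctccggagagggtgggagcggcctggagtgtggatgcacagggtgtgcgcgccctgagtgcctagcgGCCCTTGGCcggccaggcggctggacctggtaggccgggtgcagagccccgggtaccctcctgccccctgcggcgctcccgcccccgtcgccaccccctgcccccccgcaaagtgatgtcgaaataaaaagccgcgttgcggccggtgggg
GATA3: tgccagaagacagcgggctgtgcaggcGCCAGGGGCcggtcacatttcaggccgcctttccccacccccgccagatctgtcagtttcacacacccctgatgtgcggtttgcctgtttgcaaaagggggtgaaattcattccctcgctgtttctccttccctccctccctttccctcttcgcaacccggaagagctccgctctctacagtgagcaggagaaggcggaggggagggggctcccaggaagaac
GRHL3: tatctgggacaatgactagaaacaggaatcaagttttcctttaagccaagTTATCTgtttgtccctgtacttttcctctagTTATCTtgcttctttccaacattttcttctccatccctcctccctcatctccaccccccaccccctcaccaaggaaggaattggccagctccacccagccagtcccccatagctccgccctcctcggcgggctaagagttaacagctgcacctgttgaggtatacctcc
The GATA2 and GATA3 stretches each hold 1 AP-2 word, which begins 151 bases before the start in GATA2 and 223 bases before it in GATA3, and no GATA word. The GRHL3 stretch holds 2 GATA words, beginning 200 and 169 bases before the start, and no AP-2 word. Among 35116 RefSeq stretches of this length, 22.3% hold a GATA word and 19.8% hold the AP-2 word. The grainyhead word AACCGGTT is in 0.117% of them and in none of these 3, and no marked words overlap. KRT8 and TP63 also have entries, and KRT18, KRT19, EYA1 and GRHL2 have none. A match by letters is a description and not a binding site.

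Levels were compared between genes as TPM, the count per exon length scaled to the same sum in every library. In hHAR123 hESCs, KRT18 was highest at 194 ± 2.9 TPM (SD, n = 3), followed by KRT8 at 74.8 ± 1.0 and KRT19 at 74.7 ± 2.7, and these last values did not differ beyond their spread. GRHL2 followed at 18.1 ± 1.5 TPM. EYA1 and GRHL3 were far lower, at 0.452 ± 0.021 and 0.307 ± 0.074 TPM, and GATA3, GATA2 and TP63 lay below 0.1 TPM. In hHAR123 neuroectoderm the order changed, with KRT19 at 67.1 ± 2.9 TPM above KRT8 at 37.8 ± 0.34 and KRT18 at 32.2 ± 1.2. The order of the keratins rests on the summed length of all annotated exons, 6881 bases for KRT8, 3069 for KRT18 and 2336 for KRT19. By CPM, without length, KRT8 at 138.5 was above KRT19 at 83.5 and KRT18 at 52.8 in hHAR123 neuroectoderm. In hHAR123 hESCs the CPM were 328 for KRT18, 284 for KRT8 and 96.3 for KRT19. GRHL3, at 2.24 ± 0.50 TPM, and EYA1, at 1.56 ± 0.049, stood above GATA2 at 0.463 ± 0.043 and GRHL2 at 0.402 ± 0.104, and these last values overlapped.

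**Figure D1:**
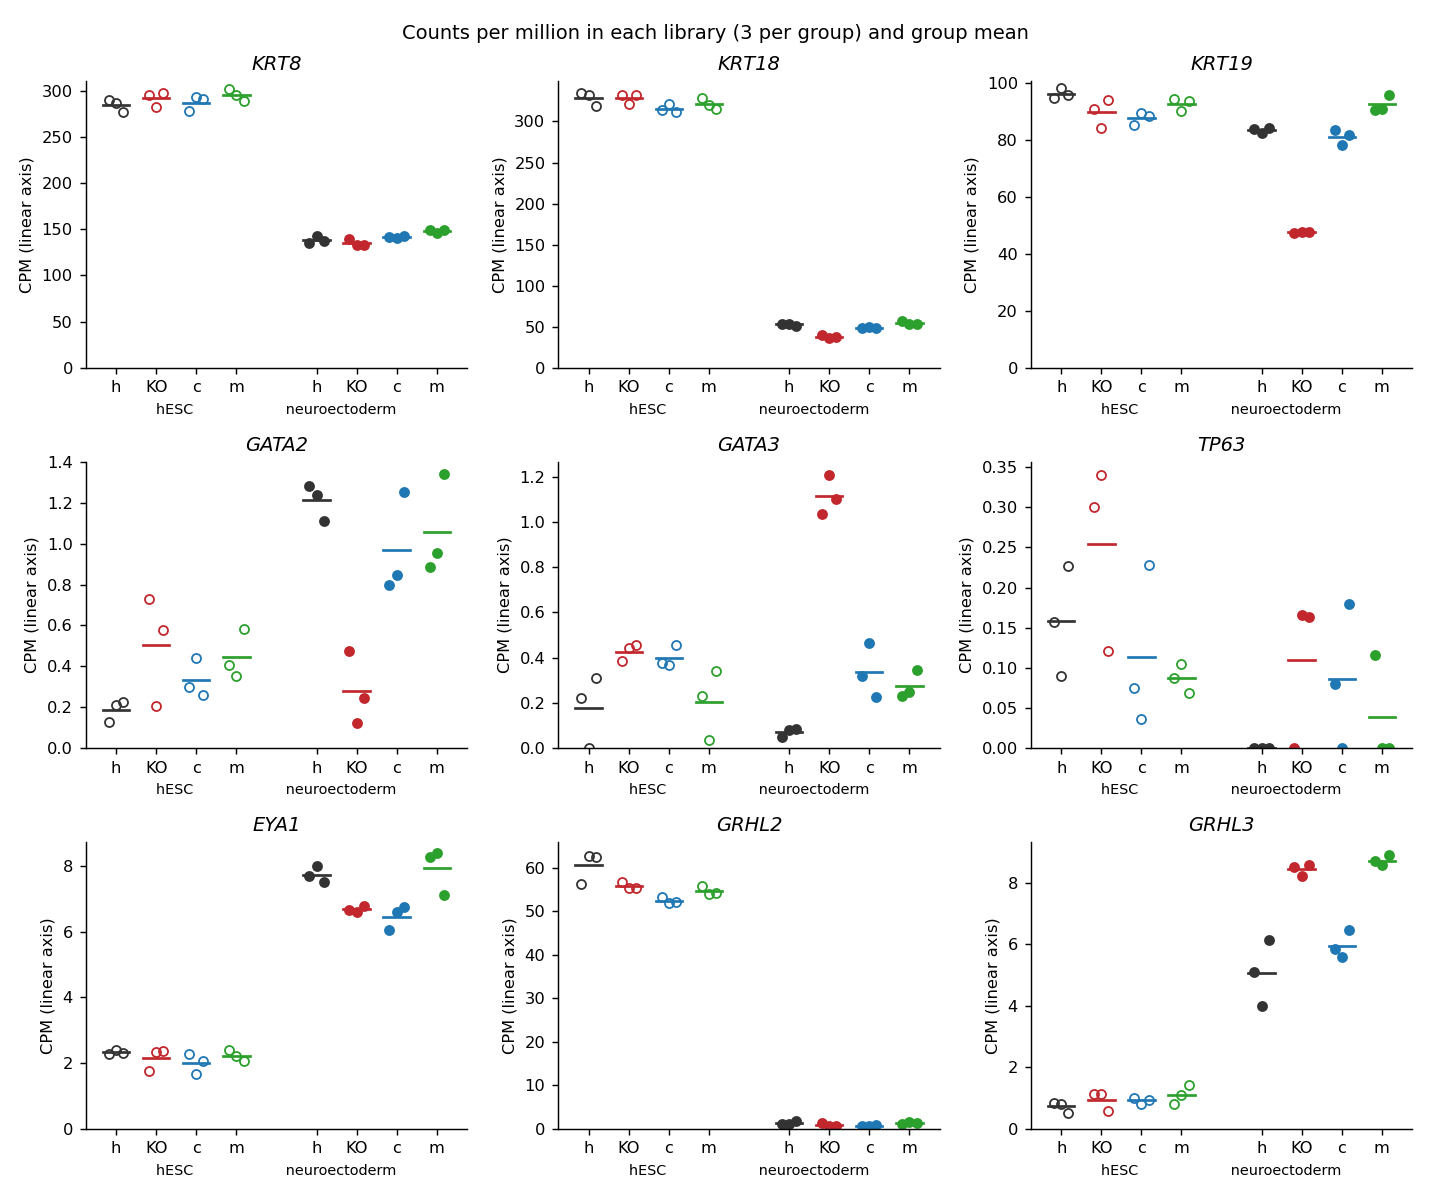
CPM of each gene (linear axis, from 0) in each of 24 libraries, with open circles for hESCs, filled circles for neuroectoderm and a bar for the mean of 3 libraries (h, hHAR123; KO, HAR123-KO; c, cHAR123; m, mHAR123). KRT8, KRT18 and GRHL2 are lower in every neuroectoderm library than in any hESC library, while GATA3 is above 1 CPM only in HAR123-KO neuroectoderm.

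The passage from hESCs to neuroectoderm was examined first, within each genotype. In hHAR123 a call required an adjusted p (Benjamini-Hochberg, over all genes tested) under 0.01 and a log2 fold change beyond 1 in either direction, as in every comparison here. Of 7 members tested, 3 rose and 3 fell, where 45.9% of 22280 genes were called, and all 7 passed the adjusted p alone, where 80.1% of all genes did. A large share of all genes was called at this stage change, so the share of the members is read against that background.

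GRHL2 fell the most. It had 56.3, 62.8 and 62.5 CPM in hHAR123 hESCs and 1.19, 1.03 and 1.67 CPM in neuroectoderm, so the groups were far apart. The log2 fold change was -5.83 (SE 0.10, adjusted p = 2.85e-37, edgeR). GRHL3, its paralog, went the other way, from 0.852, 0.813 and 0.511 CPM to 5.09, 4.01 and 6.15 CPM, also without overlap. Its log2 fold change was 2.52 (SE 0.20, adjusted p = 1.72e-14).

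Of the keratins, KRT18 fell more than KRT8. KRT18 had 334, 332 and 319 CPM in hESCs and 53.0, 53.9 and 51.4 CPM in neuroectoderm (log2 fold change -2.93, SE 0.04, adjusted p = 5.53e-41). KRT8 had 290, 287 and 276 CPM and then 135, 143 and 138 CPM (-1.33, SE 0.03, adjusted p = 1.66e-30). KRT19 was lower by 0.50 on the log2 scale (SE 0.04, adjusted p = 2.25e-15), which is under the fold limit, and its 94.9, 98.2 and 95.9 CPM in hESCs lay above the 83.8, 82.4 and 84.3 CPM of neuroectoderm.

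GATA2 and EYA1 rose. GATA2, a factor of early non-neural ectoderm and of blood progenitors, went from 4, 7 and 8 counts to 27, 30 and 26 counts (log2 fold change 2.36, SE 0.35, adjusted p = 9.91e-08). EYA1, a phosphatase that acts with SIX-family factors in placodes, went from 2.27, 2.41 and 2.30 CPM to 7.71, 8.02 and 7.52 CPM (1.44, SE 0.12, adjusted p = 1.12e-13). GATA3 had 7, 0 and 11 counts in hESCs and 1, 2 and 2 in neuroectoderm, and TP63 had 5, 3 and 8 counts and then none, and neither passed the filter on low counts. For TP63 a count of 0 allows up to 3 counts in each library. TP63 was called lower with no filter (adjusted p = 0.0013) and with DESeq2 (adjusted p = 0.00906), with a fitted fold change that depends on the prior count.

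The other genotypes kept most of these directions. In HAR123-KO, 3 of 8 members tested rose and 4 fell (background 41.1%, and 79.2% by adjusted p alone, which 7 passed). In cHAR123 and in mHAR123, 3 of 7 rose and 3 fell (backgrounds 42.7% and 41.9%, and 78.9% and 78.6% by adjusted p alone, which 7 passed in each). GRHL2 fell by 5.50 to 6.41 on the log2 scale in the 4 genotypes, GRHL3 rose by 2.47 to 3.01, KRT18 fell by 2.73 to 3.31 and EYA1 rose by 1.41 to 1.66. These comparisons have no libraries in common.

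**Figure D2:**
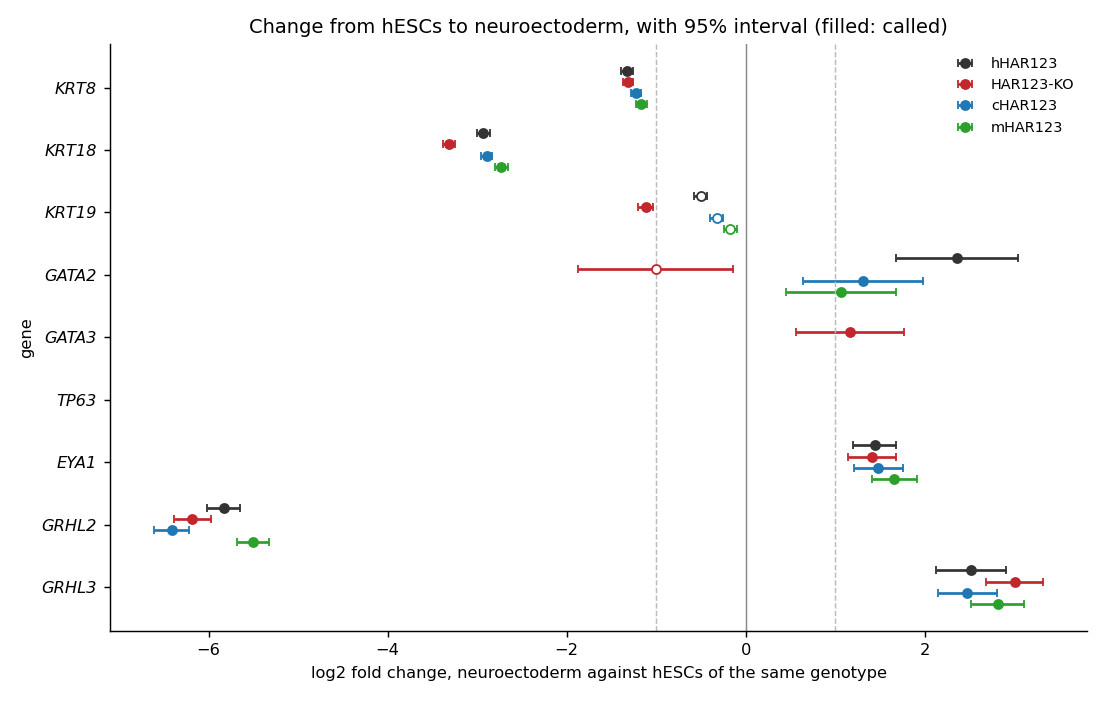
Log2 fold change of each gene from hESCs to neuroectoderm within each genotype, from edgeR, with bars for the 95% interval, dashed lines at the fold limit and filled points for genes called. GATA2 is above 0 in hHAR123, cHAR123 and mHAR123 and below 0 in HAR123-KO, and KRT19 is beyond the limit only in HAR123-KO. TP63 was not tested in any genotype, and GATA3 was tested only in HAR123-KO.

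GATA2 and KRT19 gave other calls in HAR123-KO than in hHAR123, and GATA3 was called in HAR123-KO but was not tested in hHAR123. The test of the difference between these genotypes is given with the interaction. GATA2 went from 17, 6 and 19 counts in HAR123-KO hESCs to 11, 3 and 6 in neuroectoderm, which overlap (log2 fold change -1.004, SE 0.44, adjusted p = 0.0326, not called). Without HAR123-KO hESC replicate 2 or without HAR123-KO neuroectoderm replicate 1 it was called lower, at -1.41 and -1.58. GATA3 rose, from 9, 13 and 15 counts to 24, 29 and 27 (1.16, SE 0.31, adjusted p = 0.000526), and this call was lost with DESeq2 (adjusted p = 0.0267).

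KRT19 fell in HAR123-KO by 1.12 on the log2 scale (SE 0.04, adjusted p = 1.67e-33), from 91.1, 84.1 and 94.2 CPM to 47.5, 47.6 and 47.7 CPM. In hHAR123, cHAR123 and mHAR123 it was lower by 0.50, 0.32 and 0.17, each past the adjusted p and under the fold limit. With the neuroectoderm labels exchanged, the KRT19 values were -0.10 in cHAR123 (adjusted p = 0.0228), which did not pass, and -0.40 in mHAR123. KRT19 is a type I keratin of simple and developing epithelia.

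In cHAR123, GATA2 rose by 1.31 (SE 0.34, adjusted p = 0.000585), from 8, 12 and 8 counts to 20, 20 and 28. In mHAR123 it rose by 1.07 (SE 0.31, adjusted p = 0.00166), from 14, 10 and 17 counts to 23, 23 and 31. Both calls were lost with DESeq2 (adjusted p = 0.0272 and 0.047). The cHAR123 call was also lost without neuroectoderm replicate 3 (1.09, adjusted p = 0.0109), and the mHAR123 call without hESC replicate 1 or 2 or neuroectoderm replicate 3 (0.99, 0.91 and 0.88). With the neuroectoderm labels exchanged, the mHAR123 value was 0.90 and not called.

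Genotypes were next compared at the hESC stage, to ask whether the members differed before differentiation. None of 7 members tested was called against hHAR123 in HAR123-KO (background 1.18%), cHAR123 (0.850%) or mHAR123 (1.23%) by edgeR, and none by DESeq2. At an unadjusted p under 0.05 there were 3, 4 and 5. The share of all genes at this threshold was not computed, so these counts are not read as a result. By adjusted p alone there were 0 in HAR123-KO (12.4% of all genes), 2 in cHAR123 (16.3%) and 1 in mHAR123 (19.2%). The 3 comparisons share the hHAR123 libraries.

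GRHL2, which keeps hESC colonies epithelial, was lower by 0.24 on the log2 scale in cHAR123 (SE 0.04, adjusted p = 3.05e-05) and by 0.19 in mHAR123 (SE 0.04, adjusted p = 0.000309). It had 53.3, 51.8 and 52.1 CPM in cHAR123 and 55.9, 54.1 and 54.1 CPM in mHAR123, and both groups lay below the 3 hHAR123 values. In HAR123-KO the difference was -0.14 (95% interval -0.22 to -0.06, adjusted p = 0.0104), just outside the threshold. KRT19 was lower by 0.16 in cHAR123 (SE 0.03, adjusted p = 0.000467), with 85.4, 89.6 and 88.6 CPM.

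For KRT8 the intervals were narrow, from -0.04 to 0.07 in HAR123-KO and from -0.07 to 0.04 in cHAR123. For GATA3 they were wide, with a log2 difference of 1.22 in HAR123-KO (95% interval 0.26 to 2.19, adjusted p = 0.0754) on 9 to 15 counts per library. GATA2 was not tested in HAR123-KO hESCs with all libraries, and it was called higher without HAR123-KO hESC replicate 2 (1.73, adjusted p = 0.00377). In mHAR123 hESCs its difference was 1.17 (adjusted p = 0.0273), called only at a threshold of 0.05.

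In neuroectoderm, the deletion was compared with hHAR123 to ask what the loss of the enhancer changed. Of 8 members tested, GATA3 rose and GATA2 fell, and no other member was called. That is 2 of 8, where 9.45% of 21362 genes were called. By adjusted p alone, 5 members passed, 2 higher and 3 lower, where 44.1% of all genes passed. The median log2 difference of the 8 was -0.29, beside 0.00 over all genes.

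GATA3, which acts in non-neural ectoderm, the inner ear and trophoblast, had 1, 2 and 2 counts in hHAR123 neuroectoderm and 24, 29 and 27 in HAR123-KO. Every HAR123-KO library lay above every library of the other 7 groups on the CPM scale. The summed counts, 80 against 5, gave a ratio of 15.3 after scaling by library totals (exact 95% interval 6.30 to 48.4, for counting error only). The fitted log2 fold change was 3.89 (SE 0.47, adjusted p = 7.85e-10), and it depends on the prior count because the control is so near 0. The level reached in HAR123-KO was 1.11 ± 0.087 CPM (SD, n = 3).

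GATA2 moved in the opposite direction. It had 27, 30 and 26 counts in hHAR123 and 11, 3 and 6 in HAR123-KO, with no overlap, and 1.21 ± 0.090 against 0.281 ± 0.177 CPM (SD, n = 3). It fell by 2.04 on the log2 scale (SE 0.37, adjusted p = 4.23e-06). An antisense gene, GATA2-AS1, shares 78 exon bases with GATA2 and had 8 counts over the hHAR123 libraries and 17 over the HAR123-KO libraries. Whether the counting used strand is not given in the sources used here, so reads over these bases could belong to either gene.

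The 2 calls held under each alternative that was run, leaving out any library included. For GATA2 the log2 fold change ranged from -2.62 to -1.70, and for GATA3 from 3.68 to 4.01.

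Among the keratins, KRT19 and KRT18 were lower in HAR123-KO neuroectoderm by adjusted p alone, and KRT8 did not pass. KRT19 had 83.8, 82.4 and 84.3 CPM in hHAR123 against 47.5, 47.6 and 47.7 CPM (log2 fold change -0.76, SE 0.04, adjusted p = 2.33e-21). KRT18 had 53.0, 53.9 and 51.4 CPM against 39.8, 36.8 and 37.5 CPM (-0.42, SE 0.05, adjusted p = 3.08e-10). Neither pair of groups overlapped, and neither difference reached the fold limit. KRT8 had 135, 143 and 138 CPM against 139, 133 and 133 CPM, and its log2 difference was 0.01 (95% interval -0.06 to 0.08, adjusted p = 0.807).

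GRHL3, which acts in surface ectoderm at the closing neural tube, had 5.09, 4.01 and 6.15 CPM in hHAR123 and 8.53, 8.24 and 8.58 CPM in HAR123-KO. The groups did not overlap, and the log2 difference of 0.79 (SE 0.12, adjusted p = 1.29e-07) was under the fold limit. GRHL2 had 25, 25 and 39 counts against 33, 13 and 17, which overlap (-0.51, SE 0.29, adjusted p = 0.144). Without HAR123-KO neuroectoderm replicate 1, the library with 33 counts, GRHL2 was called lower (-1.01, adjusted p = 0.00981). EYA1 had 7.71, 8.02 and 7.52 CPM against 6.68, 6.62 and 6.78 CPM. These groups did not overlap, and the test did not pass, with a log2 difference of -0.16 (95% interval -0.36 to 0.04, adjusted p = 0.199). TP63 had 0, 4 and 4 counts in HAR123-KO and none in hHAR123, too few for a fold.

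**Figure D3:**
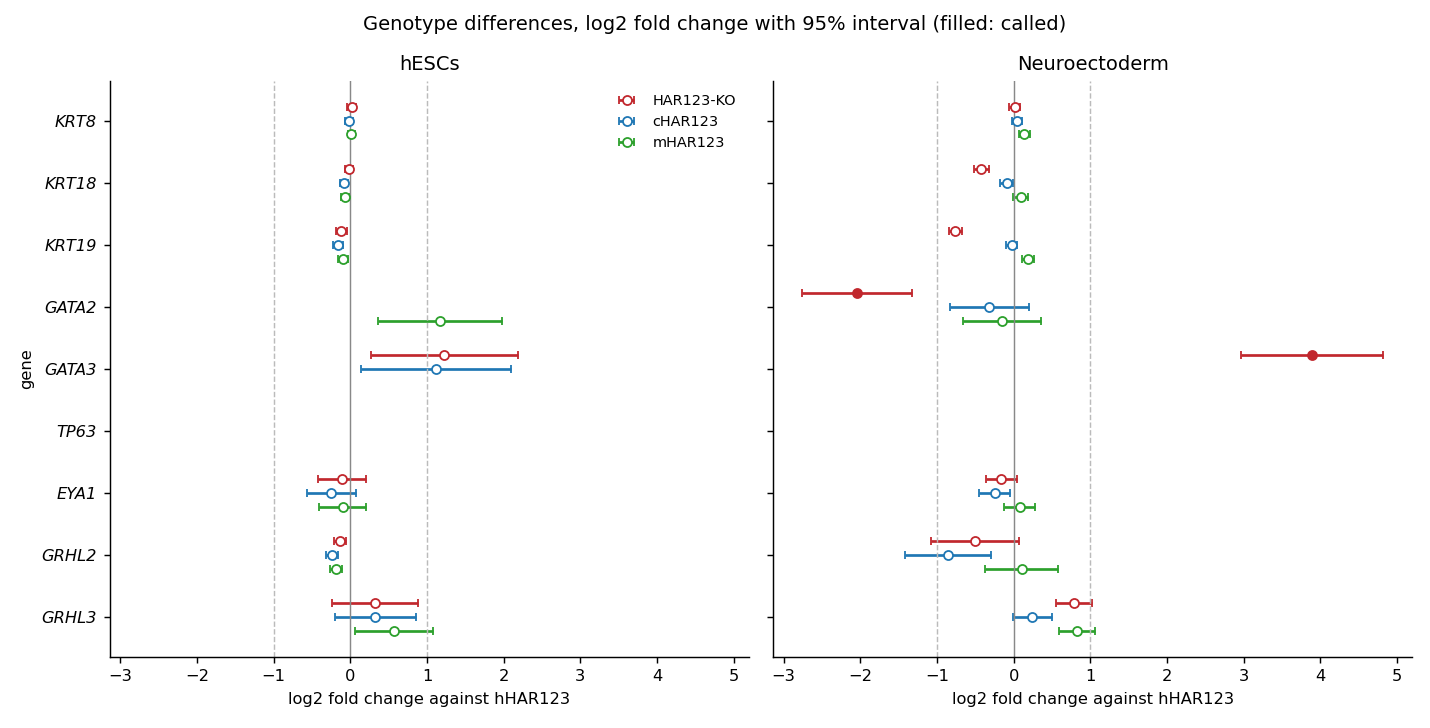
Log2 fold change of each gene against hHAR123 in hESCs (left) and neuroectoderm (right), from edgeR, with bars for the 95% interval, dashed lines at the fold limit and filled points for genes called. GATA2 and GATA3 in HAR123-KO neuroectoderm, at -2.04 and 3.89, are the filled points. A gene with no point was not tested.

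The replacement genotypes were set beside the deletion to ask how the levels with each sequence compared with those of hHAR123. Against hHAR123 in neuroectoderm, none of 7 members tested was called in cHAR123 (background 0.978%) or mHAR123 (1.03%) by edgeR or DESeq2. At an unadjusted p under 0.05 there were 3 in each, again not read as a result, with no share of all genes computed at this threshold. By adjusted p alone there were 0 in cHAR123, where 9.89% of all genes passed, and 3 in mHAR123, where 14.0% did. These comparisons share the hHAR123 libraries with each other and with that of HAR123-KO.

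The 3 in mHAR123 were all higher. GRHL3 had 8.70, 8.57 and 8.91 CPM, above every hHAR123 library (log2 difference 0.82, SE 0.12, adjusted p = 1.39e-06). KRT19 had 90.7, 91.1 and 96.0 CPM (0.19, SE 0.04, adjusted p = 0.000551). KRT8 had 150, 146 and 149 CPM (0.14, SE 0.04, adjusted p = 0.0049).

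GATA2 had 20, 20 and 28 counts in cHAR123 and 23, 23 and 31 in mHAR123, and its CPM overlapped with hHAR123 in both. The log2 difference was -0.32 in cHAR123 (95% interval -0.84 to 0.20) and -0.16 in mHAR123 (-0.67 to 0.35). GATA3 had 8, 11 and 5 counts in cHAR123 and 6, 6 and 8 in mHAR123, between hHAR123 and HAR123-KO with no overlap with either. Its counting ratio to hHAR123 was 4.64 in cHAR123 (exact 95% interval 1.74 to 15.6) and 3.75 in mHAR123 (1.36 to 12.8). These intervals cover counting error only and leave out the spread between libraries. GATA3 did not pass the filter in these comparisons, and with no filter the adjusted p was 0.0348 and 0.102. GRHL2 in cHAR123 had 14, 16 and 20 counts, with a log2 difference of -0.86 that did not pass (adjusted p = 0.0322).

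Against HAR123-KO neuroectoderm, the same 2 genes were called in both replacement genotypes. In cHAR123, GATA2 was higher by 1.75 on the log2 scale (SE 0.38, adjusted p = 0.000101) and GATA3 fell by 1.72 relative to HAR123-KO (SE 0.34, adjusted p = 2.02e-05), 2 of 8 tested beside 7.61% of all genes. In mHAR123, GATA2 was higher by 1.91 (SE 0.38, adjusted p = 3.67e-05) and the GATA3 difference was -1.99 (SE 0.35, adjusted p = 5.29e-06), beside 7.33% of all genes. The groups did not overlap for either gene.

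By adjusted p alone, 5 members differed between cHAR123 and HAR123-KO (39.0% of all genes) and 5 between mHAR123 and HAR123-KO (36.5%). KRT19 was higher in both, by 0.76 (SE 0.04) and 0.97 (SE 0.04), and KRT18 by 0.35 (SE 0.05) and 0.53 (SE 0.05). The GRHL3 difference was -0.52 (SE 0.10) in cHAR123, which passed, and 0.06 in mHAR123, which did not (95% interval -0.12 to 0.24). KRT8 passed only in mHAR123 (0.15, SE 0.03). GRHL2 was called higher in mHAR123 only without HAR123-KO neuroectoderm replicate 1 (1.14, adjusted p = 0.00332).

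Between the chimpanzee and mouse replacements in neuroectoderm, none of 7 members was called by edgeR or DESeq2 (background 0.261%). An unadjusted p under 0.05 was found for 6. The share of all genes at this threshold was not computed, so this count is not read as a difference of the set. By adjusted p alone 3 passed, where 4.20% of all genes did. All 3 were higher in the libraries labelled mHAR123 than in those labelled cHAR123, and with the labels exchanged the differences turn to -0.58 for GRHL3, -0.21 for KRT19 and -0.18 for KRT18. GRHL3 differed by 0.58 (SE 0.10, adjusted p = 6.57e-05), and its cHAR123 values of 5.84, 5.58 and 6.46 CPM lay below all 3 mHAR123 values. KRT19 differed by 0.21 (SE 0.04, adjusted p = 3.33e-05) and KRT18 by 0.18 (SE 0.04, adjusted p = 0.00451). The order of GRHL3 levels in neuroectoderm was mHAR123, HAR123-KO, cHAR123 and hHAR123. The difference did not pass between the upper pair or between cHAR123 and hHAR123 (0.24, 95% interval -0.01 to 0.49).

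Whether the effect of the deletion differed between the stages was tested directly, as an interaction. The HAR123-KO effect differed for 2 of 8 members by the call (background 7.87%) and for 4 by adjusted p alone (32.5% of all genes). For GATA2 the effect in neuroectoderm minus that in hESCs was -3.39 on the log2 scale (SE 0.61, adjusted p = 7.16e-06). Its hESC part rests on 4 to 8 counts per library in hHAR123 and 6 to 19 in HAR123-KO. For GATA3 the interaction was 2.67 (SE 0.82, adjusted p = 0.00696). The GATA3 interaction was not called with DESeq2 (adjusted p = 0.0217) or without any of 9 of the 12 libraries in turn, where it ranged down to 1.963 (adjusted p = 0.117, without hHAR123 hESC replicate 3). For KRT19 the interaction was -0.64 (SE 0.06, adjusted p = 1.16e-13) and for KRT18 -0.41 (SE 0.05, adjusted p = 7.93e-09), while for KRT8 it was -0.01 (95% interval -0.10 to 0.08).

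The keratins were also compared within a library, as ratios of TPM. The size of each ratio rests on the exon lengths used, while its change between groups does not. KRT18 to KRT8 was 2.41 to 2.59 in the 12 hESC libraries and 0.623 to 0.881 in the 12 neuroectoderm libraries. In neuroectoderm it was 0.854 ± 0.023 (SD, n = 3) in hHAR123, 0.776 ± 0.022 in cHAR123, 0.633 ± 0.0089 in HAR123-KO and 0.824 ± 0.032 in mHAR123. The HAR123-KO values lay below all the others. KRT19 to KRT8 was 0.877 to 1.02 in hESCs. In neuroectoderm it was 1.78 ± 0.071 in hHAR123, 1.69 ± 0.047 in cHAR123 and 1.84 ± 0.055 in mHAR123, against 1.04 ± 0.031 in HAR123-KO. The type I to type II keratin ratio thus moved in opposite directions for KRT18 and KRT19 between the stages.

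**Figure D4:**
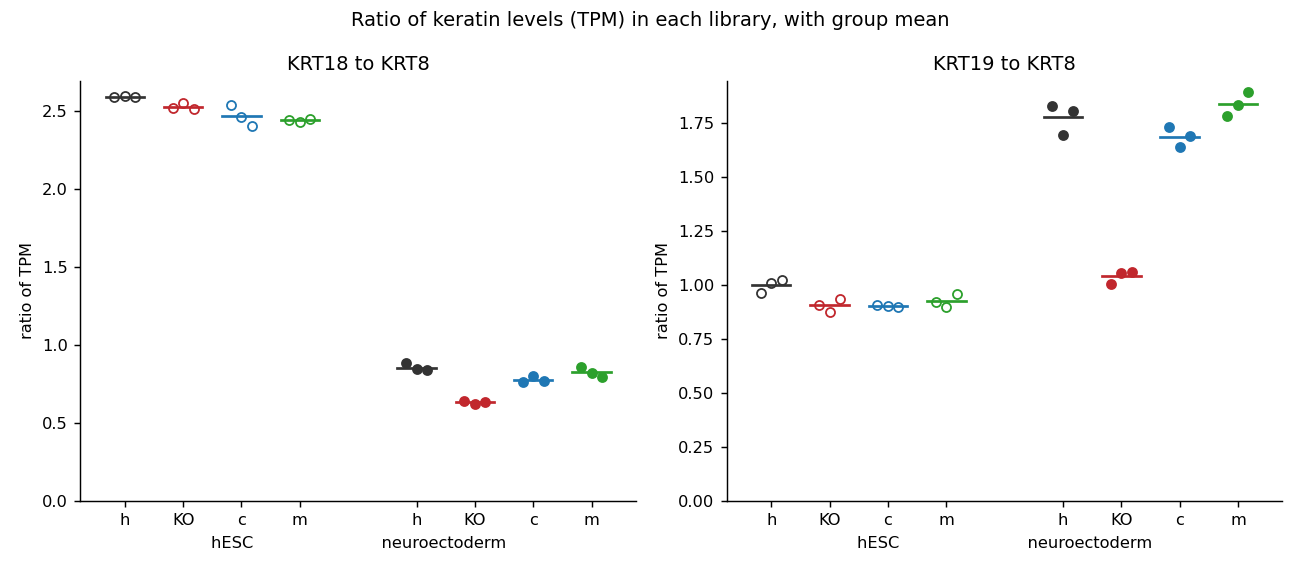
Ratio of TPM of KRT18 to KRT8 (left) and KRT19 to KRT8 (right) in each library, with hESCs as open circles, neuroectoderm as filled circles and bars for the mean of 3 libraries (h, hHAR123; KO, HAR123-KO; c, cHAR123; m, mHAR123). KRT18 to KRT8 is above 2.4 in hESCs and below 0.9 in neuroectoderm, and KRT19 to KRT8 in neuroectoderm is lowest in HAR123-KO.

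On GRCh38, KRT8 (chr12:52897187-52949954, minus strand) and KRT18 (chr12:52948871-52952906, plus strand) are neighbours, and KRT19 is at chr17:41523617-41528308 on the minus strand. GATA2 is at chr3:128479427-128493201 on the minus strand, and GATA3 at chr10:8045378-8075198 and TP63 at chr3:189631389-189897276 on the plus strand. EYA1 (chr8:71197433-71592025, minus strand) and GRHL2 (chr8:101492439-101669726, plus strand) lie on one chromosome, and GRHL3 is at chr1:24199558-24364482 on the plus strand.

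KRT8 and KRT18 read in opposite directions and share 525 exon bases. Both also have many processed copies in the genome, 51 for KRT8 and 67 for KRT18 in the table. The copies took 8.16% to 9.98% of the KRT8 family counts in hESCs and 21.1% to 24.02% in neuroectoderm, and 2.73% to 3.72% and 25.0% to 36.1% of the KRT18 family counts. In neuroectoderm the KRT18 share was 34.25% to 36.06% in HAR123-KO and 29.53% to 30.27% in hHAR123. With the copies added to their parents, KRT8 was just under the fold limit from hESCs to neuroectoderm in cHAR123 (-0.9998) and mHAR123 (-0.95). KRT18 was then lower by 0.31 in HAR123-KO than in hHAR123 neuroectoderm, with an interaction of -0.30. Its stage change in hHAR123 was then -2.46. The KRT18 to KRT8 ratios leave the copies out. KRT19 has 5 copies, with at most 3 counts in a library.

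Related genes from lists of the same pathways were then read beside the members in HAR123-KO against hHAR123 neuroectoderm. In this comparison 9.45% of 21362 genes were called and 44.1% passed the adjusted p alone. The list counts for it, here and below, are read against these shares. Of 11 epithelial genes tied to GRHL and OVOL factors, OVOL2 rose (1.90, SE 0.31, adjusted p = 9.87e-07) and GRHL1 fell by 1.07 (SE 0.09, adjusted p = 2.93e-15), and 6 genes in all were lower by adjusted p alone. The median of the list was -0.65, beside 0.00 over all genes. OVOL2 represses mesenchymal genes, and it had 5 to 12 counts in hHAR123 and 33 to 42 in HAR123-KO. Of 7 basal epidermal genes tied to TP63, ITGB4, a hemidesmosome integrin, fell by 1.30 (SE 0.31, adjusted p = 0.000308) and no other was called.

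In the placode SIX-EYA-DACH network, 3 of 8 genes rose and none fell, with a median of 0.50. EYA4, a paralog of EYA1, rose from 2.92 ± 0.32 to 29.0 ± 0.70 CPM (SD, n = 3; 3.36, SE 0.09, adjusted p = 2.14e-34). DACH2 rose by 2.67 (SE 0.26, adjusted p = 7.7e-13). Of 10 other placode transcription factors, 4 rose and 2 fell. PAX2, of the otic placode and the midbrain-hindbrain border, rose from 6.36 ± 0.64 to 64.7 ± 0.53 CPM (3.40, SE 0.07, adjusted p = 6.84e-41). NEUROG1 rose by 2.84 (SE 0.14, adjusted p = 7.55e-24), while PAX8 fell by 1.72 (SE 0.39, adjusted p = 0.000176) and NEUROG2 fell by 1.12 (SE 0.21, adjusted p = 9.99e-06). These genes also mark neural cells.

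Of the other GATA factors and their cofactors, 1 of 2 tested rose, ZFPM2 (1.25, SE 0.19, adjusted p = 2.48e-07). Of 9 BMP response genes, 6 rose and 1 fell. MSX1 rose from 3.82 ± 0.35 to 45.0 ± 1.4 CPM (3.61, SE 0.08, adjusted p = 1.28e-38) and MSX2 by 3.44 (SE 0.12, adjusted p = 7.71e-30), and ID4 fell by 1.54 (SE 0.04, adjusted p = 1.72e-33).

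Markers of other cell types were read in the same way. All 7 neural crest markers tested rose in HAR123-KO neuroectoderm. The summed level of the 8 listed was 289 to 297 CPM in hHAR123 and 1766 to 1784 CPM in HAR123-KO. FOXD3 rose by 6.27 (SE 0.06, adjusted p = 1.14e-53) and TFAP2B by 5.87 (SE 0.05, adjusted p = 1.68e-56). In cHAR123 and mHAR123 neuroectoderm 5 of 7 rose in each, where 0.978% and 1.03% of all genes were called. The summed levels there were 360 to 366 and 418 to 420 CPM. The part of these cells in the GATA3 and GATA2 differences was not tested.

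In cHAR123 neuroectoderm no gene of the epithelial, basal epidermal, SIX-EYA-DACH, other placode or GATA lists was called against hHAR123 by edgeR. In mHAR123 PAX2 rose (1.27) and no other gene of these lists was called. TFAP2C rose in both, by 1.27 and 1.46 on the log2 scale.

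Of 16 amnion and trophoblast markers, 3 were tested in this comparison, of which TFAP2C and KRT7 rose and HLA-G fell. TFAP2C, an AP-2 factor that non-neural ectoderm and neural crest also use, rose from 4.35 ± 0.15 to 87.4 ± 0.87 CPM (4.38, SE 0.07, adjusted p = 5.35e-46). KRT7, a simple-epithelium keratin, had 5 to 9 counts in hHAR123 and 19 to 41 in HAR123-KO (2.21, SE 0.37, adjusted p = 1.08e-06), and HLA-G fell by 1.34 (SE 0.29, adjusted p = 0.00012). The summed level was 6.32 to 7.15 CPM in hHAR123 and 89.2 to 90.5 CPM in HAR123-KO, nearly all of it TFAP2C. CGA, CGB3, ELF5, ERVW-1, ERVFRD-1, XAGE2 and CDX2 had no count in HAR123-KO neuroectoderm, and all of these but CGA and ERVW-1 also had none in hHAR123. VGLL1 had 1 to 2 counts in each HAR123-KO library and none in the other neuroectoderm groups. CGB5 had 18 counts over the HAR123-KO libraries and 20 over the hHAR123 libraries, VTCN1 12 and 6, and GABRP 9 and 7.

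Of 8 neuroectoderm markers, HES5 fell by 3.001 (SE 0.05, adjusted p = 1.62e-45), LHX2 by 1.97 (SE 0.31, adjusted p = 3.2e-07) and SOX1, named after its value was seen, by 1.60 (SE 0.05, adjusted p = 5.43e-33), and ZIC1 rose (2.36, SE 0.05, adjusted p = 2.24e-39). Their sum was 1530 to 1552 CPM in hHAR123 and 1030 to 1044 CPM in HAR123-KO. Of 8 pluripotency markers ZFP42 rose (2.22, SE 0.09, adjusted p = 5.35e-28), and their sum was 1869 to 1966 CPM against 1690 to 1725 CPM. Of 2 mesoderm markers tested PDGFRA rose (2.13, SE 0.11, adjusted p = 3.72e-23), and neither of 2 endoderm markers tested was called. The part of these cell types in the member differences was not tested.

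**Figure D5:**
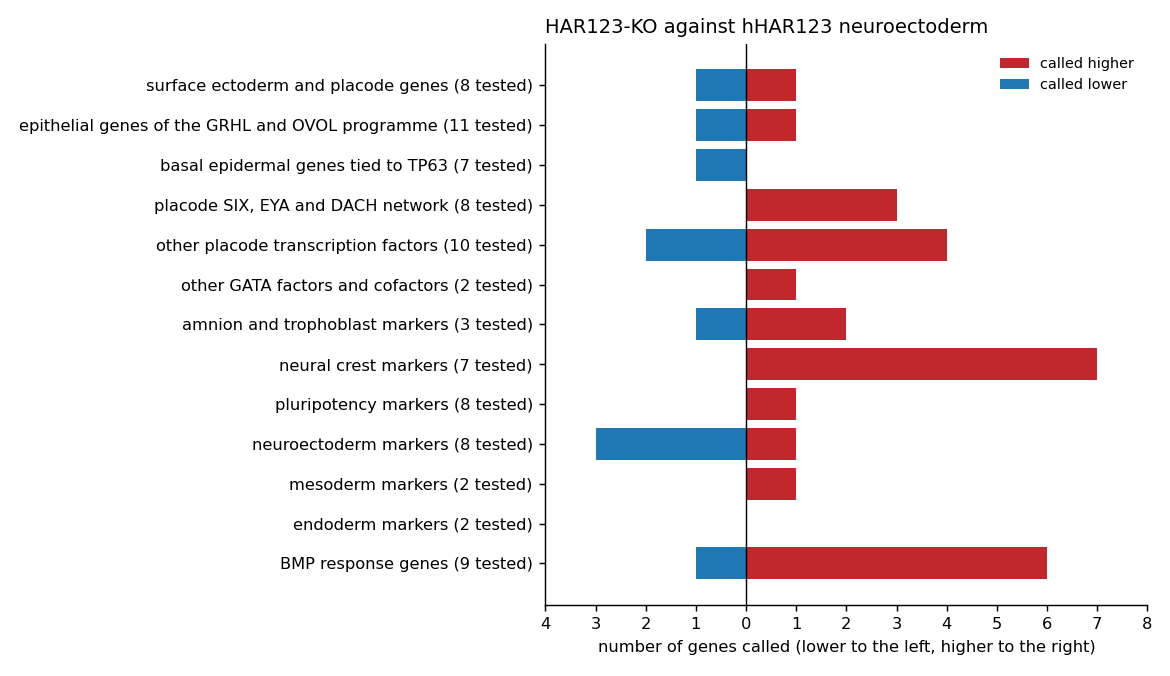
Number of genes called higher (right of 0) and lower (left of 0) in HAR123-KO against hHAR123 neuroectoderm in the set of 9 and in 12 related lists, with the number tested in brackets. The neural crest list has 7 of 7 called higher, and the set of 9 has 1 in each direction of 8 tested. Over all genes, 9.45% were called.

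At the stage change in hHAR123, the epithelial list moved with GRHL2. Of 13 genes, 12 fell, by 1.02 to 6.89 on the log2 scale, and 1 rose, GRHL1, which went up with GRHL3. The median of the list was -5.01, beside 0.05 over all genes. The list counts at this stage are read against the 45.9% of all genes called. Of 8 basal epidermal genes tested, 5 fell and none rose (median -1.11). Of 10 other placode factors, 6 rose and 2 fell (median 2.06), and in the SIX-EYA-DACH network 2 of 9 rose and 1 fell (median -0.07). The 3 amnion and trophoblast markers called, KRT7 among them, fell, and of 9 BMP response genes 3 rose and 4 fell.

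The genes whose levels were most like each member were found by Pearson's r of log2(CPM + 0.5) over the 24 libraries, among 17479 genes with a symbol and at least 1 CPM on average. These libraries share the stage change, so high values of r are common, and r is given as a description. For GATA3 they were ENSG00000245688 (0.913), BMP4 (0.903), a BMP ligand, and HAS2 (0.878), a hyaluronan synthase. For GATA2 they were CACNA1E (0.930), ADAM33 (0.906) and MAPK11 (0.905). GRHL2 was followed by RARRES2, FOXH1 and ZSCAN10, each at 0.997. GRHL3 was followed by HMCN1 (0.986), MMP24OS (0.984) and ATRN (0.984), and EYA1 by MORN4 (0.993) and DLK1 (0.992). The nearest to KRT8 were ARHGEF34P, ITGB5 and CYP2S1, each at 0.998, and the nearest to KRT18 were C6orf132, ARHGEF34P and DUSP6, each at 0.999. KRT19 was followed by EMX1 (0.973), LLGL2 (0.968) and RFFL (0.966). For TP63, with at most 10 counts in a library, no gene exceeded 0.715.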

How the data were processed

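RNA was sequenced from H9 cells of 4 genotypes at 2 stages, 3 libraries each. Per the labels and the study's methods, the authors depleted rRNA, sequenced paired ends, aligned reads with STAR 2.5.2b to GRCh38 and counted reads over exons with featureCounts. The files they deposited hold raw counts for each gene, and the strand setting is not given in the sources used here. A gene whose line was broken over 3 lines was left out, and 61551 genes were used.

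CPM and TPM (per summed exon length) were computed from the counts. Each comparison was fitted to its own libraries with edgeR 4.0.16 (R 4.3.3, filterByExpr, TMM, quasi-likelihood F test, Benjamini-Hochberg over all genes tested). A gene was called at an adjusted p under 0.01 and a log2 fold change beyond 1. Each SE was obtained as the log2 fold change over the root of its F statistic, and the interaction used 12 libraries. The fits were tested on simulated data. Intervals on counts cover counting error only. DESeq2 1.42.0, its size factors, no filter, all libraries in one fit, a replicate block, other thresholds, added processed copies, leaving out each library and exchanged labels were alternatives, the last chosen after seeing the data.

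The members and the 12 related lists (epithelial, basal epidermal, SIX-EYA-DACH, other placode, GATA cofactors, amnion and trophoblast, neural crest, pluripotency, neuroectoderm, mesoderm, endoderm and BMP response) were chosen with earlier results of these data known. All members are described. Of each list, the largest increases and the largest decreases in HAR123-KO neuroectoderm are named, at most 2 of each. Genes named outside this rule are SOX1, KRT5, KRT14 and the amnion and trophoblast markers that were not tested there. For each member the 3 genes with the highest correlation are given, except for TP63, whose counts are too sparse, and for a gene that is not reported here.

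Base means in the study's gene lists were matched to the columns within 0.1%. In hESCs the lists matched their own labels for 87 of 87 genes (cHAR123) and 143 of 143 (mHAR123). In neuroectoderm, the cHAR123 list matched the columns labelled mHAR123 for 117 of 117 genes and the mHAR123 list those labelled cHAR123 for 114 of 114. Values in those lists were not otherwise used. Replicate libraries differed beyond counting noise (chi-square per degree of freedom 1.41 to 5.53), so none was treated as a duplicate.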

Additional observations from a re-analysis of the deposited data

Results flagged for a closer look

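The effect of the HAR123 deletion differed between neuroectoderm and hESCs for 4 of the 8 members tested, by edgeR's test of the interaction over 12 libraries at an adjusted p under 0.01, which 32.5% of 23113 genes passed. The difference between the stages (neuroectoderm minus hESCs, log2 scale) was -3.39 for GATA2 and 2.67 for GATA3. It was -0.64 for KRT19 and -0.41 for KRT18. The hESC part of the GATA2 value rests on 19 counts over the hHAR123 libraries and 42 over the HAR123-KO libraries. These groups overlapped, and GATA2 did not pass the filter in that hESC comparison. The GATA3 value rests on 18 counts over the hHAR123 hESC libraries and 5 over the hHAR123 neuroectoderm libraries, and its call was lost in 9 of the 12 leave-one-out fits.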

How the results depend on the processing

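No member called at both thresholds turned direction under an alternative that was run. With the neuroectoderm labels exchanged, values that passed the adjusted p alone did turn sign: between mHAR123 and cHAR123, GRHL3 (-0.58), KRT19 (-0.21) and KRT18 (-0.18), in mHAR123 against hHAR123, KRT19 (-0.03), and in cHAR123 against HAR123-KO, GRHL3 (0.06). Apart from the setting with no fold limit, 1407 member values kept their call, 6 gained one and 20 lost one. A further 3 calls, at TP63 and GATA2, arose where the filter had left the gene untested. The changes were at GATA2, GATA3, GRHL2, TP63 and, with processed copies added, KRT8. Depth limits GATA2, GATA3 and TP63, which had at most 31 counts in a library. The cause of the changes below was not tested, except that a setting with no fold limit must call more genes.

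With DESeq2, genes called in hESCs were 155 in HAR123-KO (246 with edgeR), 78 in cHAR123 (178) and 114 in mHAR123 (259). In neuroectoderm they were 129 in cHAR123 (208), 131 in mHAR123 (219) and 14 between mHAR123 and cHAR123 (55). With DESeq2 the number of members higher in the interaction was 0 (1 with edgeR). With no fold limit, genes called were 2573, 3417 and 4057 in hESCs (HAR123-KO, cHAR123, mHAR123). They were 9412, 2105 and 2972 in neuroectoderm, 8271 and 7716 for cHAR123 and mHAR123 against HAR123-KO, and 886 between mHAR123 and cHAR123. For the stage change they were 17839, 17037, 17406 and 17426 (hHAR123, HAR123-KO, cHAR123, mHAR123) and for the interaction 7507. Members lower were then 2 in cHAR123 hESCs, 1 in mHAR123 hESCs, 3 in HAR123-KO neuroectoderm, 2 in cHAR123 against HAR123-KO and 3 in the interaction. Members higher were then 2 in HAR123-KO neuroectoderm, 3 in mHAR123 neuroectoderm, 3 and 4 in cHAR123 and mHAR123 against HAR123-KO, and 3 between mHAR123 and cHAR123. At an adjusted p of 0.05, 1 member was higher in mHAR123 hESCs. Leaving out each library in turn, members higher ranged from 0 to 1 in HAR123-KO hESCs, from 1 to 2 in mHAR123 against HAR123-KO and from 0 to 1 in the interaction, and members lower from 1 to 2 in HAR123-KO neuroectoderm.

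The replicate numbers do not pair the libraries. No comparison had every same-numbered pair's deviations correlated over 0.1. A fit with the replicate number as a block gave 0.855 to 1.05 times as many genes called and changed no member call.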
